A study of Mus musculus with 24 samples.

Results

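The genes of fatty acid uptake and oxidation described here are 32 members of the 25229 gene symbols in a heart RNA-seq count table, found by symbol, and all 32 passed the filter on low counts. They were followed in 4 groups of 6 libraries made from the left ventricle plus septum of male C57BL/6 mouse hearts. TAC/Benzene mice had transverse aortic constriction (TAC), a narrowing of the aorta that puts pressure on the left ventricle. After 1 week to recover they breathed benzene at 50 ppm in sessions of 6 hours, on 5 days of each week, for 6 weeks. TAC/Air mice had the same surgery and breathed HEPA-filtered air. Sham/Benzene mice had sham surgery and benzene, and Sham/Air mice had sham surgery and filtered air. No label ties a library to its mouse or gives an age, so p-values measure the spread between these samples.

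Fatty acids are the main fuel of the adult heart muscle cell. They enter through the cell membrane, are bound to coenzyme A, cross into the mitochondrion as carnitine esters and are shortened there cycle by cycle, while peroxisomes start on the fatty acids that mitochondria handle poorly. Electrons leave the first step of each cycle through electron transfer flavoprotein to the respiratory chain. Nuclear receptors of the PPAR family and their partners switch on many of these genes, and hearts under pressure overload are known for lower expression of them.

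RefSeq promoter windows of 250 bases before to 50 after the start were available for 25 of the 32 members, 28 windows in all. They were searched on both strands for the nuclear receptor core site AGGTCA, the site TCAAGGTCA, the direct repeat of 2 such core sites with any 1 base between them (up to 2 mismatches in all), the E-box CACGTG and the CCAAT box; the core site lies inside both of the longer nuclear receptor motifs. AGGTCA was in 17.9% of member windows and in 16.2% of all 32544 windows, and the direct repeat in 14.3% of member windows and 3.87% of all windows. TCAAGGTCA was in 0 of 28 member windows and 0.412% of all, CACGTG in 3.57% and 7.17%, and CCAAT in 50.0% and 37.4%. The 4 windows with the direct repeat, of Slc25a20, Etfa, Echs1 and Cd36, were chosen for printing after the search. They are given because PPAR receptors are known to bind this form of repeat, together with Acot1, the member with the largest fold change, which holds no match; capitals mark the match, and a match is not evidence of binding.
Slc25a20, GRCm38.p6 chr9:108661886-108662185, plus strand: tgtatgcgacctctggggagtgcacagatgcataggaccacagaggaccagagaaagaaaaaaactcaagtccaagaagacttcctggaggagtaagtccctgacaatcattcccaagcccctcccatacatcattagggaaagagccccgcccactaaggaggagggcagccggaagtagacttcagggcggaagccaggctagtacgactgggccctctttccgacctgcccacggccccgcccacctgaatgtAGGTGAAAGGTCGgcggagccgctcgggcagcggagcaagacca
Etfa, GRCm38.p6 chr9:55512194-55512493, minus strand: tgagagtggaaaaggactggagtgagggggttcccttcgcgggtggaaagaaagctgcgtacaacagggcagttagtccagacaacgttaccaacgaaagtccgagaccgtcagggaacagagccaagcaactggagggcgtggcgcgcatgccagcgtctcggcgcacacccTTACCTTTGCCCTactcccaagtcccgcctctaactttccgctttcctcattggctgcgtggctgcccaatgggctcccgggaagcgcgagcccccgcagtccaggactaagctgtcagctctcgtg
Echs1, GRCm38.p6 chr7:140116372-140116671, minus strand: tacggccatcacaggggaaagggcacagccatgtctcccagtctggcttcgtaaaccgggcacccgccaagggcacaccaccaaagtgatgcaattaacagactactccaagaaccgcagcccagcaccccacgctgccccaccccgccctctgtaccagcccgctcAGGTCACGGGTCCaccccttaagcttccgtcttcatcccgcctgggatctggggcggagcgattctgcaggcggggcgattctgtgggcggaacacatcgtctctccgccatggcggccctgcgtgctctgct
Cd36, GRCm38.p6 chr5:17835847-17836146, minus strand: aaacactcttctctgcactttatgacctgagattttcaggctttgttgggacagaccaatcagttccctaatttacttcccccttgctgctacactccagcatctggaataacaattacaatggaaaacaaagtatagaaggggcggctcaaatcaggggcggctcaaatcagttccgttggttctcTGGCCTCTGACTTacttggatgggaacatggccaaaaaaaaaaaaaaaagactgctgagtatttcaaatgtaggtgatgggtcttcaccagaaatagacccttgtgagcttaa
Acot1, GRCm38.p6 chr12:84009252-84009551, plus strand: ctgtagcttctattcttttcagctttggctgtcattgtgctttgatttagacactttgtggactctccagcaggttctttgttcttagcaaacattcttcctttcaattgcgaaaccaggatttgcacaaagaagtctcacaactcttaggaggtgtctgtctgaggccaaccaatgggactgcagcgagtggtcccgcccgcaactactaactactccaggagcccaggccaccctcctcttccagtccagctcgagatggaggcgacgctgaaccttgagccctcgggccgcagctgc

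Total counts ranged from 10016860 to 13724100 in TAC/Benzene, from 10479981 to 13581729 in TAC/Air, from 9396445 to 14632231 in Sham/Benzene and from 4170660 to 12718494 in Sham/Air. Sham/Air replicate 1, with the lowest total, stood apart: its Spearman correlations with the other libraries were 0.852 to 0.913, while each of the other 23 had a nearest library at 0.991 to 0.996. Libraries also differed in their trend with GC content, with rank correlations from -0.769 in Sham/Air replicate 1 to 0.617, and those above 0 numbered 4 in TAC/Benzene and 3 in each other group. Results are therefore also given without Sham/Air replicate 1 and within the libraries on either side of 0.

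The first question was what pressure overload did to the pathway. In air, 21 of the 32 members fell in TAC hearts and 0 rose, against 7.35% of all tested genes lower and 8.81% higher (edgeR's quasi-likelihood test, Benjamini-Hochberg adjusted p under 0.05; 0 members were higher at an unadjusted p under 0.05, and by DESeq2 23 fell, where 9.82% of all genes did). In benzene, 21 of 32 fell and 0 rose, against 7.97% of all tested genes lower and 8.67% higher (DESeq2, 21 lower, 9.56% of all genes; 0 higher at an unadjusted p under 0.05). The members' median log2 fold change was -0.47 in air and -0.45 in benzene, where that of all tested genes was -0.01 and 0.00. The groups compared share no library, and 18 members fell in both. Both comparisons come from 1 fit of all 24 libraries with a shared spread, so their calls are not independent. Acads, Acadvl, Acot13, Cd36, Cpt1a, Cpt1b, Fabp3 and Mlycd passed in neither.

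These calls depend on what the libraries are scaled to. Of the 7 cardiomyocyte markers, 4 fell in air, with a median log2 fold change of -0.53, and 3 in benzene, with a median of -0.32. In benzene 1 marker was higher at an unadjusted p under 0.05 (edgeR), with a log2 fold change of 0.18. When each library was scaled to the mean of those markers, a scaling chosen after seeing the data, 2 members were lower and 1 higher in air (1.24% of all tested genes lower, 53.3% called in either direction), and 11 were lower in benzene (3.05% of all). Acot1 and Acaa2 stayed lower in both, and Cpt1a, which controls fatty acid entry into mitochondria, was the 1 higher in air. That scaling moved the median of all tested genes to 0.41 in air and 0.25 in benzene and the members' median to -0.0258 and -0.19. Relative to that shift the members' median lay at -0.43 and -0.44 on the log2 scale, but a scaling moves all genes of a library alike, so this difference is nearly fixed by construction and supports nothing. In bulk tissue, fewer cells of a type and less RNA per cell cannot be told apart, and the data do not say which scaling gives RNA per heart muscle cell.

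In benzene, 22 of 32 members were lower in every TAC library than in any sham library, against 6.31% of all tested genes. In air, 12 of 32 were (3.71% of all tested genes), and 24 were without Sham/Air replicate 1 (7.09% of all). Without that library 26 members fell in each comparison (11.1% of all genes lower in air, 13.2% in benzene). Those gained were Acads, Acadvl, Echs1, Mlycd and Slc27a1 in air and Acads, Acadl, Acadvl, Hsd17b4 and Lpl in benzene, where the library enters only through the spread shared by all groups and the fold changes stayed the same to 2 decimals. Acot13, Cd36, Cpt1a, Cpt1b and Fabp3 then passed in neither. Among libraries with a GC trend above 0, 29 members fell in air and 28 in benzene (13.4% and 17.2% of all genes lower), with medians of -0.46 and -0.49. Below 0, the fit called 5 and 2 members (0.968% and 0.698% of all genes) with medians of -0.43 and -0.43, and, with Sham/Air replicate 1 left out as well, 26 and 23 (6.64% and 7.21%) with medians of -0.50 and -0.43.

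**Figure D1:**
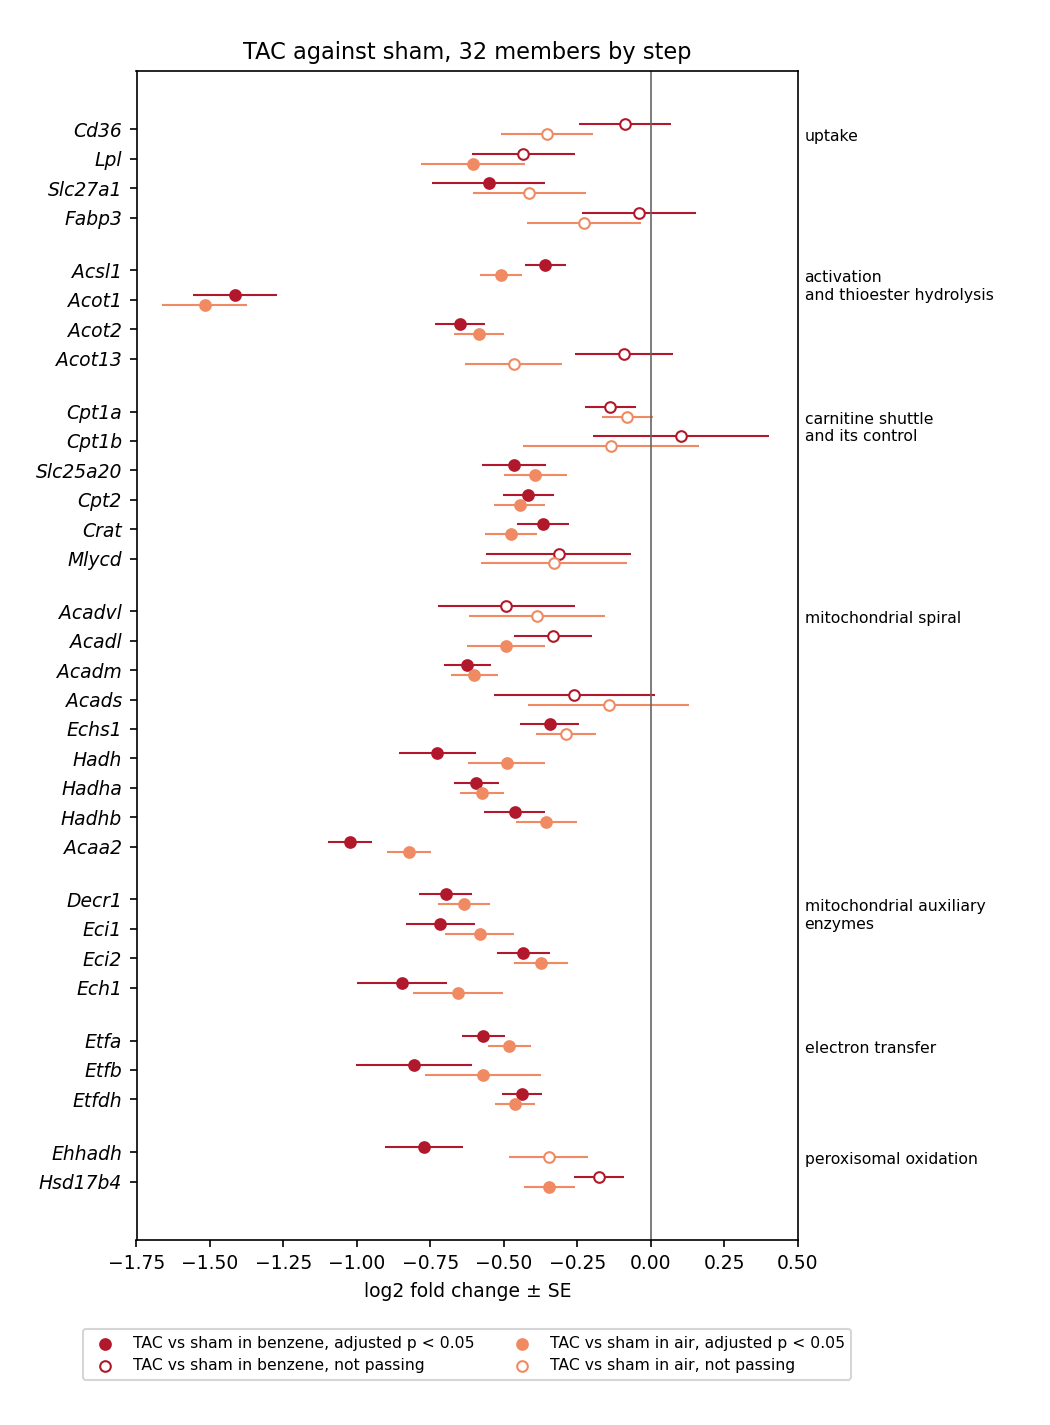
Log2 fold change of TAC over sham ± SE (horizontal axis) for the 32 members by step, in benzene and in air, n = 6 libraries per group; filled points passed an adjusted p of 0.05 and open points did not. All points lie below 0 except Cpt1b in benzene at 0.10, under the scaling to all genes.

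Summed over the 32 members, expression took 2.64 to 2.75% of counts in TAC/Benzene and 3.30 to 3.68% in Sham/Benzene, and 2.65 to 2.84% in TAC/Air and 3.36 to 3.67% in Sham/Air. The TAC and sham ranges do not overlap. The cardiomyocyte markers summed to 32500 to 35400 CPM in TAC/Benzene and 37400 to 44200 CPM in Sham/Benzene, and to 29700 to 36100 CPM in TAC/Air and 40700 to 52500 CPM in Sham/Air, with none at 0, and these ranges do not overlap either. The ratio of the members' sum to the markers' sum was 0.741 to 0.826 in TAC/Benzene and 0.804 to 0.939 in Sham/Benzene, and 0.739 to 0.904 in TAC/Air and 0.797 to 0.885 in Sham/Air, and here TAC and sham overlap. Fibroblast markers rose in 3 of 6 in each comparison, with summed levels of 2060 to 2440 CPM in TAC/Benzene and 1290 to 1640 CPM in Sham/Benzene, and of 2360 to 2940 CPM in TAC/Air and 1260 to 3020 CPM in Sham/Air. Macrophage markers had 1 of 6 lower in benzene and 1 of 6 higher in air, and endothelial markers 1 of 6 higher in benzene and 0 of 6 in air, also at an unadjusted p under 0.05. Adipocyte markers summed to at most 2.76 CPM in TAC/Benzene, 9.32 CPM in Sham/Benzene, 5.18 CPM in TAC/Air and 6.32 CPM in Sham/Air, 1 of the 2 tested was lower in benzene, and Ucp1 was at 0 in TAC/Air and Sham/Benzene. The part of these cell types in the members' changes was not tested beyond the scaling above.

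**Figure D2:**
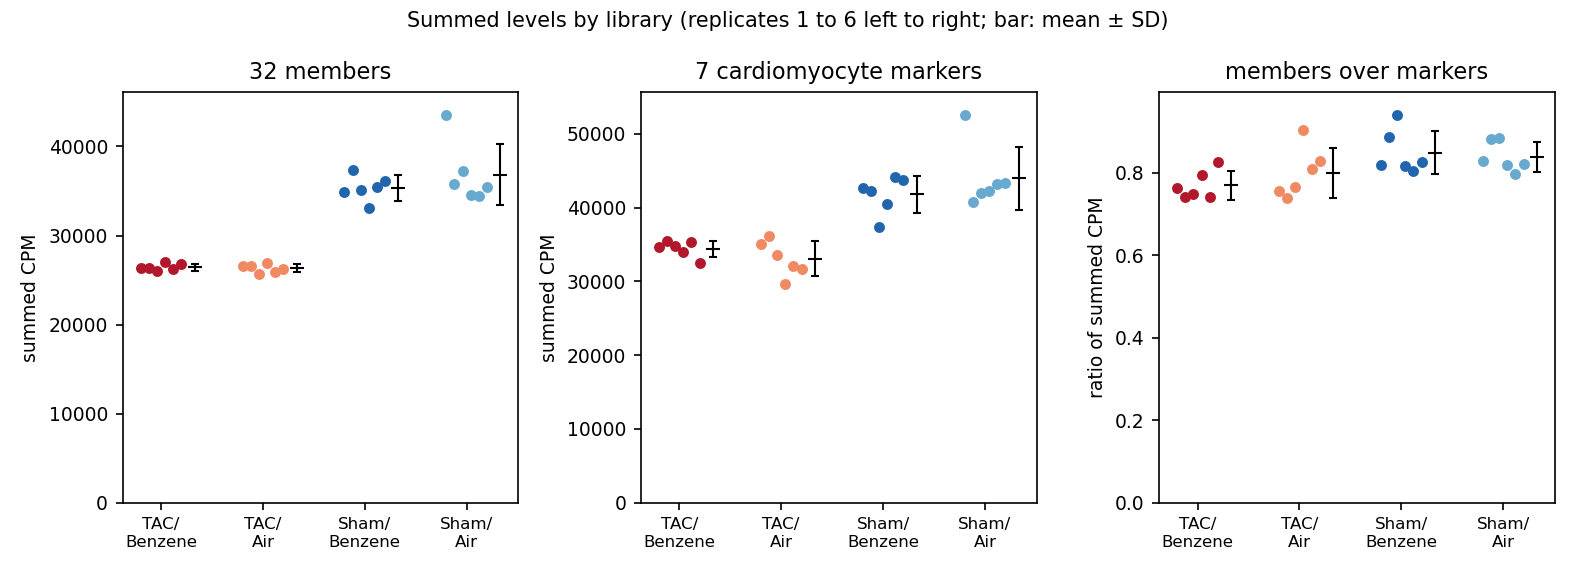
Summed CPM of the 32 members (left), of the 7 cardiomyocyte markers (middle) and the ratio of both sums (right) in each library; points are replicates 1 to 6 from left to right and bars give the mean ± SD. Both sums are lower in every TAC library than in any sham library of the same exposure, while the ratios overlap, at 0.741 to 0.826 in TAC/Benzene and 0.804 to 0.939 in Sham/Benzene.

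Among the uptake genes, 1 of 4 passed in each comparison. Lpl encodes lipoprotein lipase, which frees fatty acids from circulating triglyceride at the capillary wall. It had 5260, 6040 and 7370 CPM (lowest, median, highest) in TAC/Air and 6580, 8080 and 17300 CPM in Sham/Air, with a log2 fold change of -0.61 ± 0.18 (SE; adjusted p = 0.0178, edgeR). The groups overlap, and the highest Sham/Air value is replicate 1, without which the log2 fold change was -0.34. In benzene, Lpl had 5510, 5900 and 7090 CPM with TAC and 6910, 7830 and 10000 CPM with sham, a log2 fold change of -0.43 ± 0.18 that did not pass (adjusted p = 0.101, edgeR) but did without Sham/Air replicate 1 (adjusted p = 0.00348, edgeR).

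Slc27a1 encodes a fatty acid transport protein with acyl-CoA synthetase activity. In benzene it had 94.5, 105 and 113 CPM with TAC and 120, 158 and 172 CPM with sham, without overlap, at a log2 fold change of -0.55 ± 0.19 (adjusted p = 0.0489, edgeR). This call was lost in 20 of 24 fits that left out 1 library, with adjusted p-values (edgeR) between 1.43e-05 and 0.096. In air the values were 86.9, 98.2 and 114 CPM with TAC and 40.3, 145 and 168 CPM with sham, where Sham/Air replicate 1 is the lowest, and the log2 fold change of -0.41 ± 0.19 did not pass (adjusted p = 0.158, edgeR). Without that library it was -0.60 ± 0.09 and passed (adjusted p = 1.21e-05, edgeR).

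The membrane fatty acid receptor gene Cd36 and the heart fatty acid-binding protein gene Fabp3 passed in neither comparison in the main fit. Cd36 was called lower in air with GC and length offsets, with the GC trend as a term, and among libraries above 0. Fabp3 was called lower in air with that term and among libraries below 0 without Sham/Air replicate 1, and in benzene among libraries above 0. Cd36 averaged 2530 ± 334 CPM in TAC/Benzene and 2680 ± 549 CPM in Sham/Benzene, and 2290 ± 415 CPM in TAC/Air and 2920 ± 788 CPM in Sham/Air (SD, n = 6 each). Fabp3 averaged 3560 ± 740 CPM in TAC/Benzene and 3650 ± 915 CPM in Sham/Benzene, and 3230 ± 1000 CPM in TAC/Air and 3780 ± 743 CPM in Sham/Air. Per kilobase of transcript, Fabp3 had the highest level of the 32 in Sham/Air, at 4590 CPM per kilobase, and Lpl the second, at 2280. Fabp3 overlaps Zcchc17 on the other strand, and without strand the reads of both cannot be told apart. In all, 8 members overlap a gene on the other strand, the others being Acsl1, Crat, Acadvl, Echs1, Hadha, Eci2 and Etfdh. A further 2, Cpt1b and Etfb, overlap a gene on the same strand, where strand would not separate the reads either, and the counts of all 10 are uncertain to that extent.

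Of the activation and thioester hydrolysis genes, 3 of 4 fell in both comparisons. Acot1, a cytosolic thioesterase that splits long-chain acyl-CoA, had the largest change of all members. It had 5.22, 5.79 and 7.20 CPM in TAC/Air and 14.8, 17.0 and 20.1 CPM in Sham/Air, a log2 fold change of -1.52 ± 0.15 (adjusted p = 1.68e-08, edgeR), and 5.15, 6.57 and 7.90 CPM in TAC/Benzene and 9.91, 18.2 and 20.7 CPM in Sham/Benzene, a log2 fold change of -1.41 ± 0.14 (adjusted p = 3.69e-08, edgeR). No TAC library reached the lowest sham library. Its call held under every alternative in both comparisons.

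Acot2, the mitochondrial thioesterase beside it on chromosome 12, had 52.1, 55.3 and 59.8 CPM in TAC/Air and 60.5, 86.7 and 89.1 CPM in Sham/Air, a log2 fold change of -0.59 ± 0.09 (adjusted p = 1.42e-05, edgeR). In benzene the values were 55.3, 58.7 and 60.0 CPM with TAC and 77.7, 94.9 and 97.1 CPM with sham, a log2 fold change of -0.65 ± 0.08 (adjusted p = 2.32e-06, edgeR). TAC and sham did not overlap for it in either exposure. Acot1 and Acot2 are close paralogs, so the split of reads between them is uncertain. Their promoter windows matched at 45.7% of aligned columns when gaps were allowed, and at 74 bases without gaps. Unrelated windows were not aligned, so these values do not show that the windows are alike.

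Acsl1, the main heart enzyme that binds long-chain fatty acids to coenzyme A, fell by 0.51 on the log2 scale in air and by 0.36 in benzene, and averaged 924 ± 17.2 CPM in TAC/Benzene and 1190 ± 114 CPM in Sham/Benzene, and 851 ± 47.4 CPM in TAC/Air and 1210 ± 74.2 CPM in Sham/Air. Acot13, a thioesterase attached to mitochondria, had 276 to 324 CPM in TAC/Air, below all Sham/Air libraries at 325 to 846 CPM, but its log2 fold change of -0.47 ± 0.17 did not pass (adjusted p = 0.0554, edgeR), and in benzene it was -0.09 ± 0.17. Sham/Air replicate 1 held the 846, and the next library was at 371 CPM. Without replicate 1 the log2 fold change in air shrank to -0.16 ± 0.06 (adjusted p = 0.0701, edgeR), while leaving out Sham/Air replicate 2, 4, 5 or 6 brought it past the threshold at -0.51 to -0.54 (adjusted p = 0.0307 to 0.0465, edgeR).

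**Figure D3:**
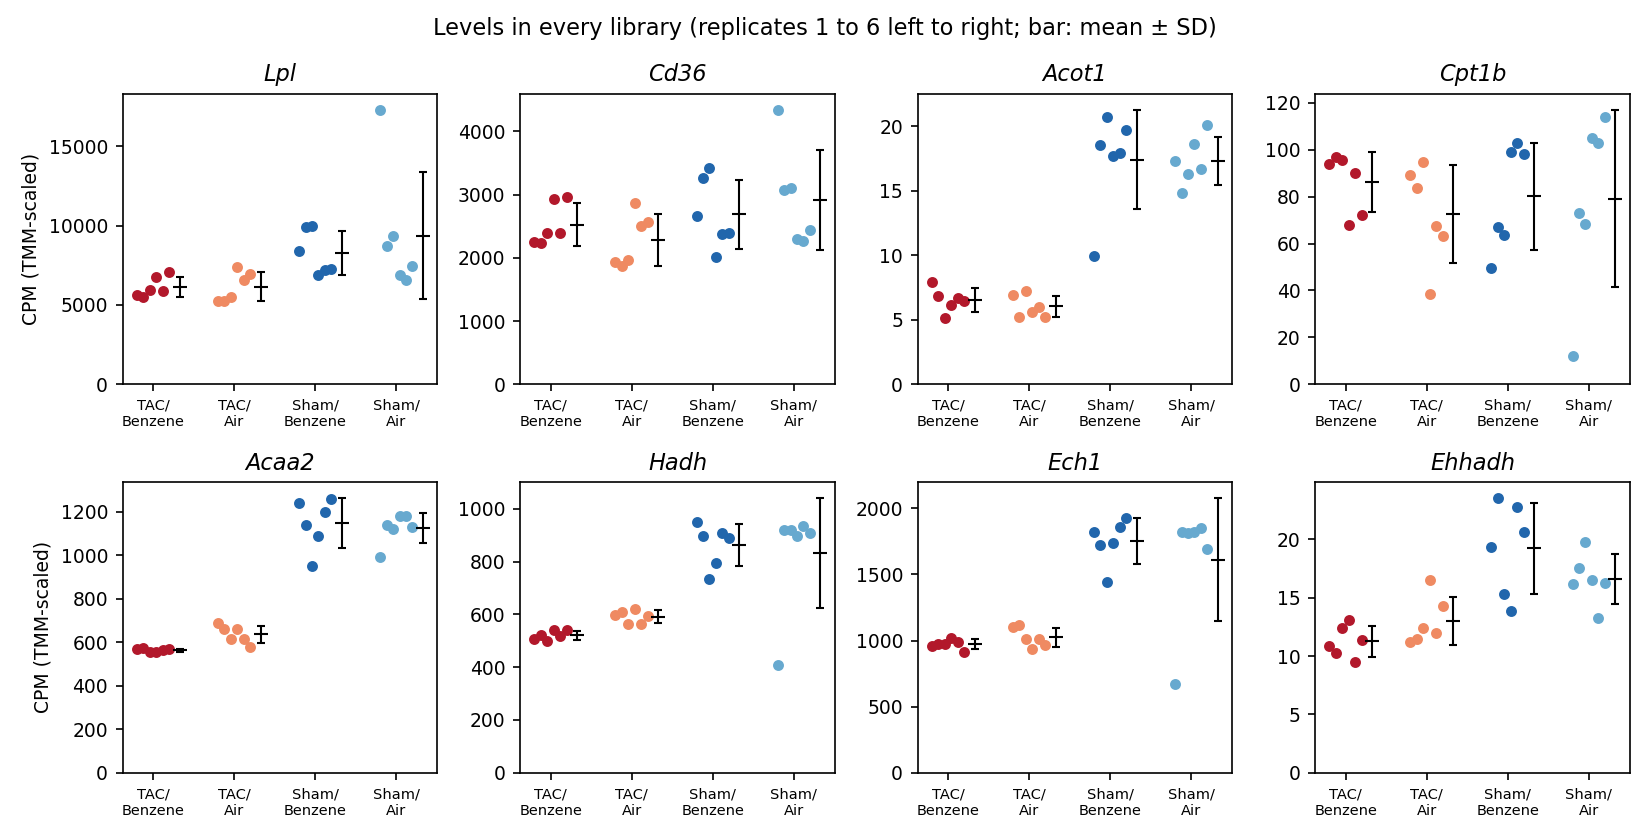
CPM on TMM-scaled totals (vertical axis) in each of 24 libraries for 8 members, by group; points are replicates 1 to 6 from left to right and bars give the mean ± SD. Acot1 and Acaa2 are lower in every TAC library than in any sham library, Cd36 and Cpt1b overlap, and Sham/Air replicate 1 is far from its group for Lpl, Hadh and Ech1.

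In the carnitine shuttle, 3 of 6 genes fell in both comparisons: Crat, Slc25a20 and Cpt2. Crat, which moves short acyl groups between coenzyme A and carnitine, had 408, 467 and 492 CPM in TAC/Air and 494, 658 and 725 CPM in Sham/Air, a log2 fold change of -0.48 ± 0.09 (adjusted p = 0.000322, edgeR). In benzene it had 442, 485 and 508 CPM with TAC and 550, 631 and 711 CPM with sham, a log2 fold change of -0.37 ± 0.09 (adjusted p = 0.00379, edgeR). TAC lay below sham without overlap both times, by a narrow margin in air.

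Slc25a20, the carrier that swaps acylcarnitine for carnitine across the inner membrane and whose window is printed above, had 155, 177 and 191 CPM in TAC/Air and 147, 241 and 257 CPM in Sham/Air (log2 fold change -0.39 ± 0.11, adjusted p = 0.0120, edgeR). Sham/Air replicate 1 lay below all TAC libraries and the other 5 sham libraries above them. In benzene its values of 148, 167 and 175 CPM with TAC and 189, 231 and 257 CPM with sham did not overlap (-0.47 ± 0.11, adjusted p = 0.00282, edgeR). Cpt2, which turns acylcarnitine back to acyl-CoA, fell by 0.45 in air and 0.42 in benzene on the log2 scale.

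The rate-setting outer membrane enzyme did not follow in these calls. Cpt1b, its muscle form, averaged 86.1 ± 12.8 CPM in TAC/Benzene and 80.1 ± 22.7 CPM in Sham/Benzene, and 72.8 ± 20.9 CPM in TAC/Air and 79.2 ± 37.7 CPM in Sham/Air; its log2 fold changes of 0.10 ± 0.30 in benzene and -0.14 ± 0.30 in air have wide errors. Cpt1a, the liver form, averaged 52.1 ± 2.51 CPM in TAC/Benzene and 57.4 ± 6.89 CPM in Sham/Benzene, and 51.3 ± 5.18 CPM in TAC/Air and 54.3 ± 3.11 CPM in Sham/Air, with log2 fold changes of -0.14 ± 0.09 and -0.08 ± 0.09. Mlycd, which breaks down malonyl-CoA, the inhibitor of that enzyme, had log2 fold changes of -0.31 ± 0.25 in benzene and -0.33 ± 0.25 in air and did not pass. With all libraries limma-voom and the fit with GC and length offsets called Mlycd lower in both comparisons. In the main fit Sham/Air replicate 1 decides the call in air: it had 25.6 CPM, where the other Sham/Air libraries had 92.7 to 150 CPM. Without it Mlycd fell at -0.53 ± 0.16 (adjusted p = 0.0175, edgeR). Cpt1b in air was -0.35 ± 0.20 without that library and still did not pass (adjusted p = 0.242, edgeR). Among libraries with a GC trend above 0, Cpt1b was called lower in air and not in benzene.

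In the mitochondrial spiral, 6 of 9 genes fell in air and 6 of 9 in benzene. Acaa2, the thiolase that cuts off acetyl-CoA, had 579, 637 and 690 CPM in TAC/Air and 994, 1140 and 1180 CPM in Sham/Air, a log2 fold change of -0.82 ± 0.07 (adjusted p = 4.98e-09, edgeR). In benzene it had 554, 566 and 573 CPM with TAC and 952, 1170 and 1260 CPM with sham, a log2 fold change of -1.02 ± 0.07 (adjusted p = 7.05e-11, edgeR). No TAC value came near the sham range, and the call held under every alternative in both comparisons.

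Hadh, the dehydrogenase for medium and short chains, had 563, 596 and 622 CPM in TAC/Air and 407, 913 and 934 CPM in Sham/Air (log2 fold change -0.49 ± 0.13, adjusted p = 0.00933, edgeR), where 5 of 6 sham libraries lay above all TAC libraries and replicate 1 below them. In benzene it had 499, 520 and 541 CPM with TAC and 733, 894 and 948 CPM with sham, without overlap (-0.73 ± 0.13, adjusted p = 0.000205, edgeR). The first dehydrogenase of the cycle differs by chain length: Acadm, for medium chains, fell by 0.60 in air and 0.62 in benzene on the log2 scale. Acadl, for long chains, fell by 0.49 in air and had -0.33 ± 0.13 in benzene, which did not pass. Its highest Sham/Air value was replicate 1 at 2820 CPM, with the next at 1610 CPM, and without that library the log2 fold change was -0.28 ± 0.07 in air (adjusted p = 0.00320, edgeR) and the one in benzene passed (adjusted p = 0.000314, edgeR). Acadvl, for very long chains, had -0.39 ± 0.23 and -0.49 ± 0.23, and Acads, for short chains, -0.14 ± 0.27 and -0.26 ± 0.27, in air and in benzene. Neither passed in the main fit. With all libraries limma-voom called both lower in both comparisons, and the fit with GC and length offsets called Acadvl in both and Acads in benzene. In the main fit Sham/Air replicate 1 decides these calls, with 301 CPM for Acadvl and 28.4 CPM for Acads, where the other Sham/Air libraries had 1170 to 1530 and 241 to 276 CPM. Without it Acadvl was -0.59 ± 0.13 in air and -0.49 ± 0.12 in benzene (adjusted p = 0.000855 and 0.00266, edgeR), and Acads -0.37 ± 0.09 and -0.26 ± 0.09 (adjusted p = 0.00256 and 0.0227, edgeR).

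Hadha and Hadhb encode the subunits of the trifunctional protein, which carries out the later steps on long chains. Hadha fell by 0.57 and 0.59 and Hadhb by 0.36 and 0.46 on the log2 scale, in air and in benzene. Their starts lie 273 bases apart, and their promoter windows share 228 bases. The call of Hadhb in air was lost when Sham/Air replicate 3 was left out (adjusted p = 0.0508, edgeR). Echs1, the short-chain hydratase, fell by 0.34 in benzene, and in air had -0.29 ± 0.10 (adjusted p = 0.0537, edgeR). That value passed when Sham/Air replicate 1 (-0.39 ± 0.06, adjusted p = 9.43e-06, edgeR), Sham/Benzene replicate 3 (adjusted p = 0.0472) or TAC/Air replicate 2 (adjusted p = 0.0487) was left out.

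All 4 auxiliary enzymes, which prepare unsaturated fatty acids for the cycle, fell in both comparisons. Ech1, a dienoyl-CoA isomerase, had 934, 1010 and 1120 CPM in TAC/Air and 669, 1820 and 1850 CPM in Sham/Air (log2 fold change -0.66 ± 0.15, adjusted p = 0.00312, edgeR). The lowest sham value is again replicate 1, and the next sham library had 1690 CPM. In benzene Ech1 had 914, 974 and 1020 CPM with TAC and 1440, 1780 and 1930 CPM with sham (-0.85 ± 0.15, adjusted p = 0.000213, edgeR), without overlap.

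Eci1, an enoyl-CoA isomerase, had 208, 233 and 271 CPM in TAC/Air and 234, 368 and 413 CPM in Sham/Air (log2 fold change -0.58 ± 0.12, adjusted p = 0.000786, edgeR), and 202, 228 and 241 CPM in TAC/Benzene and 280, 368 and 423 CPM in Sham/Benzene (-0.72 ± 0.12, adjusted p = 6.01e-05, edgeR). The groups overlap in air through Sham/Air replicate 1 and do not in benzene. Its relative Eci2 fell by 0.37 and 0.43 on the log2 scale, and the dienoyl-CoA reductase gene Decr1 by 0.64 and 0.70, in air and in benzene.

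All 3 electron transfer genes fell in both comparisons. Etfa, a subunit of electron transfer flavoprotein with a window printed above, had 597, 645 and 729 CPM in TAC/Air and 868, 912 and 974 CPM in Sham/Air (log2 fold change -0.48 ± 0.07, adjusted p = 2.3e-05, edgeR), and 595, 632 and 650 CPM in TAC/Benzene and 786, 953 and 1020 CPM in Sham/Benzene (-0.57 ± 0.07, adjusted p = 1.56e-06, edgeR). Neither pair overlapped. The other subunit, Etfb, had 340, 392 and 518 CPM in TAC/Air and 201, 703 and 742 CPM in Sham/Air, and its log2 fold change of -0.57 ± 0.20 passed narrowly (adjusted p = 0.0483, edgeR) and was lost in 21 of 24 fits that left out 1 library (3.26e-06 to 0.103). In benzene Etfb had 346, 377 and 442 CPM with TAC and 565, 688 and 758 CPM with sham, without overlap (-0.81 ± 0.20, adjusted p = 0.00462, edgeR). Etfdh, which hands the electrons to ubiquinone, fell by 0.46 and 0.44 on the log2 scale in air and in benzene.

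Of the peroxisomal genes, 1 of 2 passed in each comparison, Ehhadh in benzene and Hsd17b4 in air. Ehhadh, the bifunctional enzyme best known as a PPAR-alpha target in liver, had 9.52, 11.1 and 13.1 CPM in TAC/Benzene and 13.9, 19.9 and 23.5 CPM in Sham/Benzene, without overlap (log2 fold change -0.77 ± 0.13, adjusted p = 0.000116, edgeR). In air it had 11.2, 12.2 and 16.5 CPM with TAC and 13.3, 16.4 and 19.8 CPM with sham, which overlap (-0.35 ± 0.13, adjusted p = 0.0806, edgeR), and it passed without Sham/Air replicate 5 or without TAC/Air replicate 4 (adjusted p = 0.0409 and 0.0305, edgeR). Hsd17b4, the second bifunctional enzyme, had 123, 124 and 130 CPM in TAC/Air and 139, 149 and 217 CPM in Sham/Air (-0.35 ± 0.09, adjusted p = 0.00538, edgeR), and 116, 123 and 132 CPM in TAC/Benzene and 128, 140 and 150 CPM in Sham/Benzene (-0.18 ± 0.09, adjusted p = 0.184, edgeR), which passed without Sham/Air replicate 1 (-0.18 ± 0.05, adjusted p = 0.00789, edgeR). Hsd17b4 did not overlap in air, where Sham/Air replicate 1 is the highest, and did in benzene. The difference between the exposures is tested below and passed for neither gene.

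Outside the 32, 58 of 60 listed genes of the pathway were tested, and 14 fell and 3 rose in air, and 16 fell and 1 rose in benzene, with medians of -0.12 and -0.15. Of all tested genes, 7.35% fell and 8.81% rose in air, and 7.97% fell and 8.67% rose in benzene. Without Sham/Air replicate 1, 59 were tested, and 24 fell and 4 rose in air, and 25 fell and 3 rose in benzene (11.1% and 13.2% of all tested genes lower). A count of 1 in a short list below lies near these shares and is no result about that list. Other mitochondrial oxidation genes had 7 of 11 lower in air and 6 of 11 in benzene, among them Acat1, which makes or splits acetoacetyl-CoA (-0.30 ± 0.07 and -0.33 ± 0.07), and Pcca, of propionyl-CoA carboxylase (-0.40 ± 0.11 and -0.49 ± 0.11). Other peroxisomal genes had 4 of 14 lower in air and 5 of 14 in benzene, with the fatty acid transporter gene Abcd2 at -0.82 ± 0.15 and -0.67 ± 0.15. Other activation genes moved both ways: the acyl-CoA synthetase gene Acsl6 fell (-0.59 ± 0.11 and -0.73 ± 0.11), while the mitochondrial thioesterase gene Acot9 rose (0.39 ± 0.09 and 0.46 ± 0.09). The triglyceride store genes had 0 of 10 called in air, 1 of them lower at an unadjusted p under 0.05, and 1 of 10 lower in benzene, G0s2, an inhibitor of triglyceride lipase (-0.83 ± 0.18, adjusted p = 0.00135, edgeR). In air G0s2 was at -0.06 ± 0.18, and its difference between the exposures did not pass (-0.77 ± 0.25, adjusted p = 0.560, edgeR). Without Sham/Air replicate 1, 4 of 10 triglyceride store genes were lower in each comparison and 1 higher in benzene. Other uptake genes had 0 of 8 called in air, 1 of them lower at an unadjusted p under 0.05, and 1 of 8 lower in benzene, the carnitine transporter gene Slc22a5 (-0.38 ± 0.12), a call lost in 3 of 24 fits that left out 1 library, Sham/Benzene replicate 5, TAC/Benzene replicate 3 or TAC/Benzene replicate 5 (adjusted p = 0.0530, 0.0623 and 0.0633, edgeR). Without Sham/Air replicate 1, Slc22a5 also fell in air (-0.31 ± 0.08, adjusted p = 0.00625, edgeR). Of 6 malonyl-CoA and other carnitine genes, 1 rose in air, Cpt1c (0.95 ± 0.26), and 1 passed in benzene, Acacb (-0.33 ± 0.11, adjusted p = 0.0469, edgeR). The call of Acacb was lost in 21 of 24 fits that left out 1 library, with adjusted p-values (edgeR) between 7.12e-05 and 0.111, and without Sham/Air replicate 1 Acacb also fell in air (-0.37 ± 0.06, adjusted p = 3.31e-05, edgeR).

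The other question was whether inhaled benzene changed the pathway. Benzene against air in sham mice called 0 of 32 members, against 0.0221% of all tested genes (edgeR's quasi-likelihood test; 1 member was lower at an unadjusted p under 0.05, and DESeq2 called 0 where it called 0.206% of all genes). Member log2 fold changes ran from -0.30 to 0.21. The smallest p-values belonged to Hsd17b4 (-0.18 ± 0.09, adjusted p = 0.819), Acot13 (-0.30 ± 0.17, adjusted p = 0.819) and Ehhadh (0.21 ± 0.13, adjusted p = 0.819), all by edgeR. The first pair rest on Sham/Air replicate 1, without which Acot13 turned to 0.0139 ± 0.06 and Hsd17b4 shrank to -0.0781 ± 0.05. Lower or higher without overlap were 0 members (0.118% and 0.162% of all tested genes). Outside the 32, 0 of 58 tested genes of the pathway were called in sham mice. The smallest adjusted p there was that of G0s2, which was higher with benzene (0.83 ± 0.18, adjusted p = 0.148, edgeR). Without Sham/Air replicate 1 G0s2 passed at 0.67 ± 0.12 (adjusted p = 0.0265, edgeR), in a fit that called 0.0146% of all tested genes.

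In TAC mice, benzene against air also called 0 of 32 members, against 0.582% of all tested genes (edgeR; 1 member lower at an unadjusted p under 0.05, and DESeq2 called 0, with 1.26% of all genes). Log2 fold changes ran from -0.21 to 0.24. Acaa2 had 554 to 573 CPM in TAC/Benzene and 579 to 690 CPM in TAC/Air (-0.17 ± 0.07, adjusted p = 0.619, edgeR), Acadm 1140 to 1190 CPM in TAC/Benzene and 1190 to 1380 CPM in TAC/Air (-0.14 ± 0.08, adjusted p = 0.924, edgeR), and Decr1 362 to 415 CPM in TAC/Benzene and 396 to 473 CPM in TAC/Air (-0.16 ± 0.09, adjusted p = 0.942, edgeR). Lower without overlap were 2 of 32 members, Acaa2 and Hadh (1.21% of all tested genes), and 1 was higher, Acsl1 (1.5%). The result changed with the libraries used. Among those with a GC trend above 0, 4 against 3 libraries, 8 members were called (6.1% of all tested genes): Acaa2, Acadm, Decr1, Eci1, Etfb and Hadh lower and Cd36 and Acsl1 higher. Below 0, with 2 against 3 libraries, 0 were called (0.00727% of all), and limma-voom with all libraries called 1, Hadh (-0.18 ± 0.05, adjusted p = 0.0344; 4.08% of all).

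**Figure D4:**
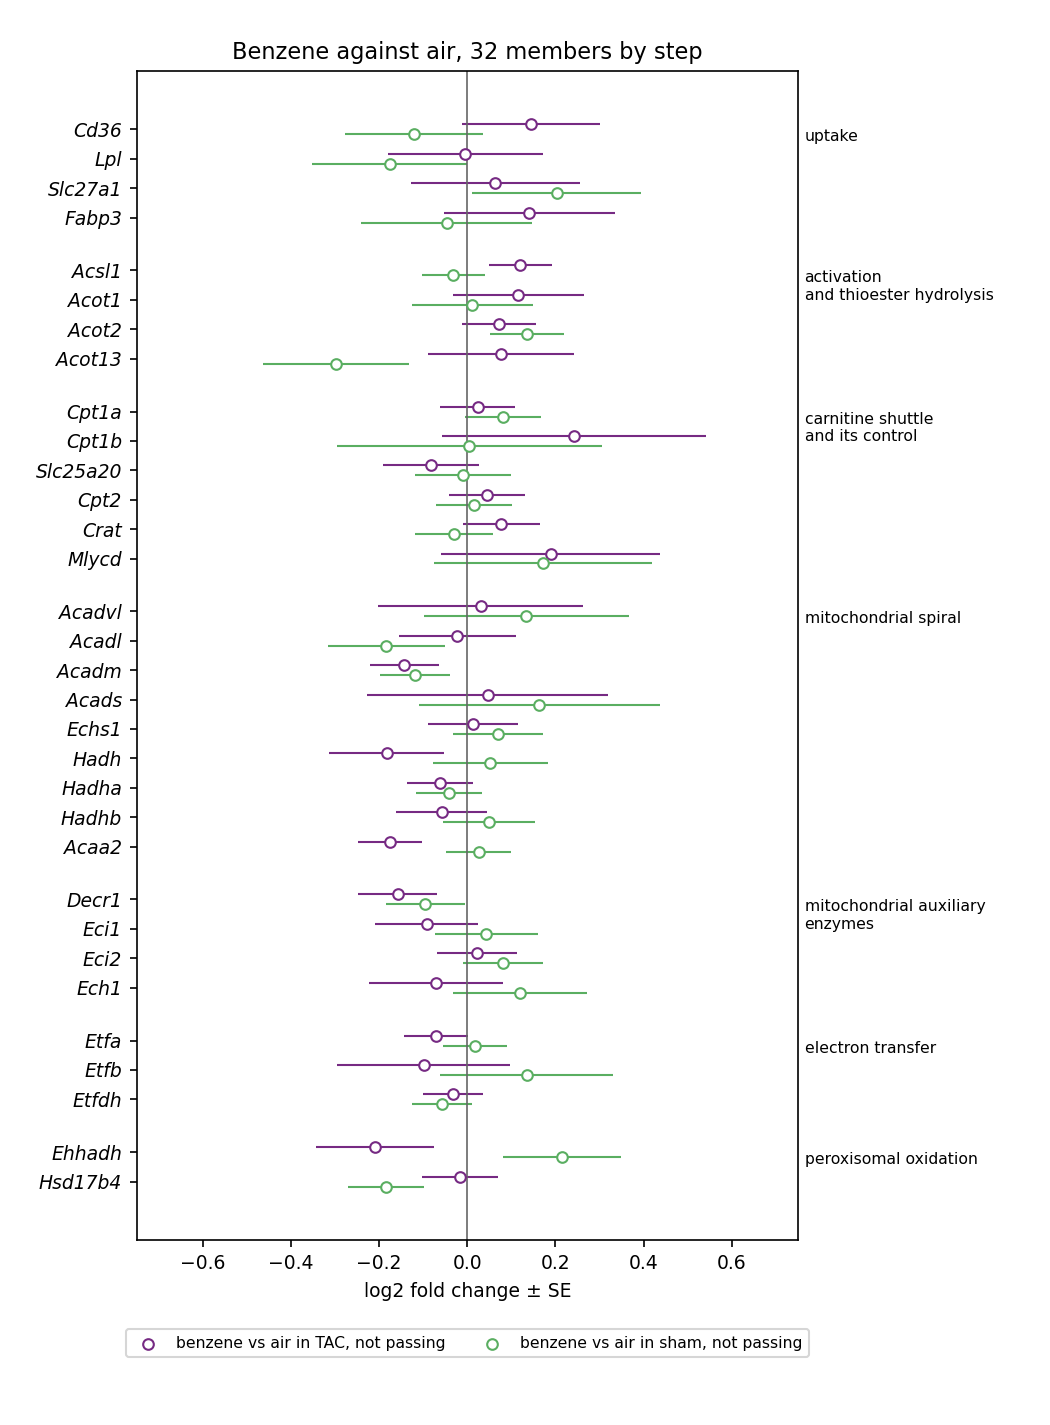
Log2 fold change of benzene over air ± SE (horizontal axis) for the 32 members by step, in TAC and in sham mice, n = 6 libraries per group; no point passed an adjusted p of 0.05. Values lie between -0.21 and 0.24 in TAC and between -0.30 and 0.21 in sham mice.

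The surgery by benzene interaction, the TAC response in benzene minus that in air, called 0 of 32 members (0.169% of all tested genes; edgeR; 1 lower at an unadjusted p under 0.05, and DESeq2 called 0, with 0.42% of all genes). Its values ran from -0.42 to 0.38. They were -0.42 ± 0.19 for Ehhadh (adjusted p = 0.972, edgeR), -0.20 ± 0.10 for Acaa2 (adjusted p = 1, edgeR) and 0.38 ± 0.23 for Acot13 (adjusted p = 1, edgeR), the 3 members with the smallest p. For Hsd17b4 it was 0.17 ± 0.12. Without Sham/Air replicate 1 the Acot13 value shrank to 0.0634 ± 0.09 and that of Hsd17b4 to 0.0619 ± 0.07. Among libraries with a GC trend above 0, 1 member was called (1.84% of all genes), Cd36 at 0.31 ± 0.08 (adjusted p = 0.0220, edgeR). The standard error of the interaction had a median of 0.159 over the 32 members.

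The precision behind these values differed from member to member. The SD of log2 CPM within groups was 0.199 at the median of the 32 members and 0.298 at the median of all tested genes. It was 0.084 for Etfdh, 0.093 for Acsl1 and 0.100 for Acaa2. At the other end were Cpt1b at 0.701, Acads at 0.674 and Mlycd at 0.540, which passed in neither TAC comparison in the main fit. With all libraries limma-voom called Acads and Mlycd lower in both TAC comparisons and Cpt1b in neither. Much of that spread is 1 library: without Sham/Air replicate 1 the SD was 0.384 for Cpt1b, 0.156 for Acads and 0.300 for Mlycd. The median then fell to 0.111 for the members and to 0.205 for all tested genes. Across the 32 members, the SD had a Pearson r of 0.522 with GC content, and 0.223 without that library, as a description over genes that share the same libraries. Cpt1b was 0.83 higher on the log2 scale in libraries with a GC trend above 0 than in those below, and Cd36 0.45 lower. Cpt1b passed neither with nor without that library. Among libraries with a GC trend above 0 it was called lower in air, but not in benzene. TAC/Air there had 83.8 to 94.6 CPM and Sham/Air 103 to 114 CPM. With all libraries the TAC difference of Cpt1b was not resolved at this spread, which does not show that the level was the same in both groups.

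**Figure D5:**
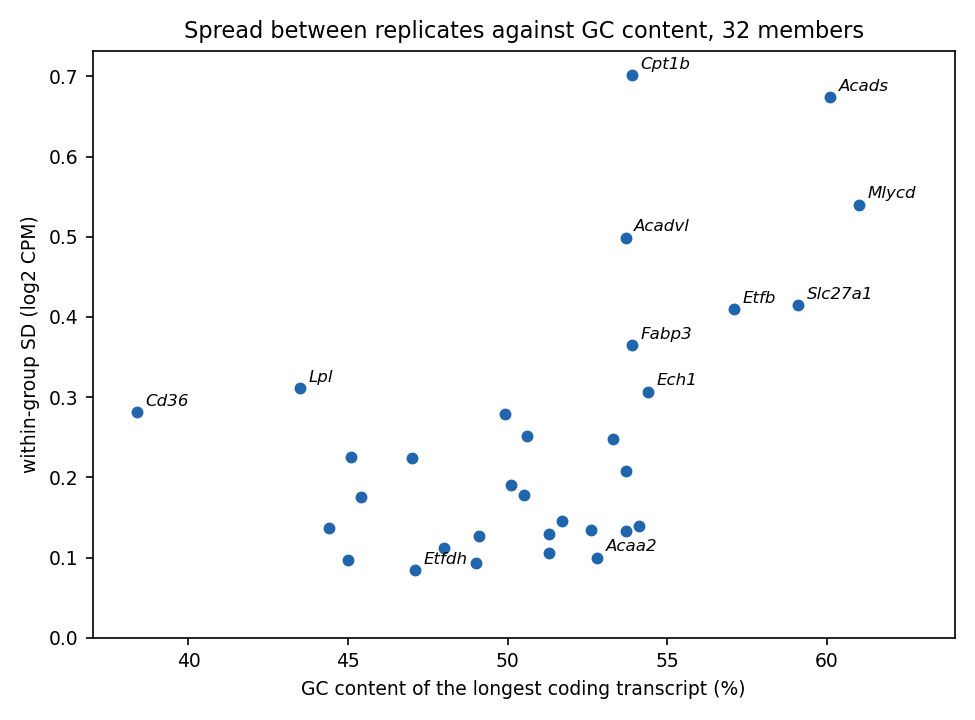
SD of log2 CPM between replicates within groups (vertical axis, all 24 libraries) against GC content of the transcript in percent (horizontal axis), 1 point per member. The highest points are Cpt1b at 0.701 and Acads at 0.674, and Etfdh is lowest at 0.084; without Sham/Air replicate 1 these would be 0.384, 0.156 and 0.0752.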

How the data were processed

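Messenger RNA of heart tissue was selected by its poly-A tail and read from both ends, per the labels' protocols. The authors deposited 1 table of raw read counts per gene symbol, 1 column per library, without normalization. Per the submitters' processing notes, reads went through FastQC 0.11.9 and STAR, and the notes also name mm9 and DESeq2. Which program counted the reads, with which annotation and strand, is not given in the sources used here, so counts of overlapping genes and of close paralogs are uncertain.

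The expression filter of edgeR 4.0.16 under R 4.3.3 (minimum count 10, minimum total 15) left 13571 of 25229 genes; those left out held 0.0747% of counts. TMM scaling and the robust quasi-likelihood test used all 24 libraries and a coefficient for each group, and p-values were adjusted by Benjamini-Hochberg over all genes tested, with calls under 0.05. Levels in CPM divide each count by the TMM-scaled total of its library, and log2 CPM adds a prior count of 2. The F statistic of each fold change gave its standard error. The fit was tested on simulated counts with known fold changes. Those counts held no GC trend and no library set apart beyond its scaled total, so that test does not cover these features of the data.

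Transcript length and GC content came from the longest coding GENCODE vM21 transcript of each symbol (98.5% of tested genes), a choice made after seeing a first run. The GC trend of a library is the Spearman correlation, over genes averaging 50 counts or more, of GC content with the gene's log2 CPM minus its mean over all libraries. Offsets for GC and length were loess curves with a span of 0.5. Promoter windows are RefSeq's on GRCm38.p6, a build other than the authors'.

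The alternatives were DESeq2 1.42.0, limma-voom (limma 3.58.1) with sample quality weights, relative log expression factors, no filter, a filter at a mean of 1 CPM, fitting just 2 groups, blocking on replicate number, GC and length offsets, and each library left out in turn. Chosen after seeing the data were the sign of the GC trend as a term, fits of the libraries on either side of 0 (below 0 also without Sham/Air replicate 1), and a scaling of each library to the mean log2 CPM of 7 cardiomyocyte markers.

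The members and the lists were chosen with earlier results of these data known. All 32 members are described. Fuller values are given for up to 2 members per step with the largest called change in either TAC comparison, for the 3 members with the smallest p in each benzene comparison and the interaction, and, in other lists, for up to 3 genes with the smallest p. Genes named outside this rule were chosen after their values were seen.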

Additional observations from a re-analysis of the deposited data

Results flagged for a closer look

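In 23 of 128 tests of a member within a group, the highest or lowest of 6 libraries lay far from the rest by Dixon's criterion on the gap to the nearest library; chance gives about 6.4. Sham/Air replicate 1 was that library in 19 of them, and it is also the library with the fewest counts. It was the lowest for Slc27a1 at 40.3 CPM, Acot2 at 60.5, Slc25a20 at 147, Acadvl at 301, Acads at 28.4, Echs1 at 288, Hadh at 407, Hadha at 1650, Acaa2 at 994, Eci1 at 234, Eci2 at 149, Ech1 at 669 and Etfb at 201 CPM. It was the highest for Lpl at 17300 CPM, Acot13 at 846, Acadl at 2820, Acadm at 2510, Decr1 at 907 and Hsd17b4 at 217 CPM. The others were Acot1 at 9.91 CPM in Sham/Benzene replicate 1, Acot13 at 276 CPM in TAC/Air replicate 3, and in TAC/Air replicate 4 Hadha at 1240 CPM and Hsd17b4 at 130 CPM. The cause was not tested.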

How the results depend on the processing

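Scaling each library to the mean of the 7 cardiomyocyte markers changed many TAC results. It called 7237 genes in air (7069 higher, 168 lower) and 3904 in benzene (3490 higher, 414 lower), against 2193 (1195 higher, 998 lower) and 2257 (1176 higher, 1081 lower), and 3 and 11 members against 21 and 21. The members' medians became -0.0258 in air, -0.19 in benzene, -0.11 for benzene against air in TAC and -0.22 for the interaction. Those of all tested genes became 0.41, 0.25, -0.11 and -0.17 in the same order, so the scaling moved all genes and not the members alone. Of 94 gene results it kept 38, took the call of 34 and turned the sign of 22, while the fit of the fewer libraries with a GC trend below 0 kept 36, took the call of 55 and turned 3. Turned in air were Cd36 to 0.12, Fabp3 to 0.19, Acot13 to 0.0242, Cpt1a to 0.35, Cpt1b to 0.24, Slc25a20 to 0.0137, Mlycd to 0.0459, Acads to 0.23, Echs1 to 0.12, Hadhb to 0.0625, Eci2 to 0.0389, Ehhadh to 0.0786, Hsd17b4 to 0.11, Acat1 to 0.12, Pcca to 0.0054, Phyh to 0.0866 and Abcd3 to 0.0395, and in benzene Cd36 to 0.17, Fabp3 to 0.21, Acot13 to 0.16, Cpt1a to 0.12 and Hsd17b4 to 0.0759. The markers' median itself fell in both comparisons, so the scale sets what counts as lower.

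Other sign changes were of values that did not pass. In air, with GC trends below 0, Cpt1a turned to 0.0105, Cpt1b to 0.12 and Acads to 0.0822, and Cpt1a to 0.0658 with Sham/Air replicate 1 left out as well. In benzene, Cd36 turned to 0.0002 with the GC trend as a term and 0.0304 above 0, Cpt1b to -0.0946 above 0, and Fabp3 to 0.0061 with GC and length offsets. For benzene against air in sham, Acot13 turned to 0.0145 by limma-voom and 0.0280 above 0. With 1 library left out, Fabp3 in benzene ran from -0.12 to 0.0329, Cpt1b in benzene from -0.0079 to 0.18 and Acot13 in sham from -0.36 to 0.0139.

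For TAC against sham in air, genes called were 3734 by limma-voom, 1278 with only the 2 groups, 3856 with GC and length offsets, 3805 above and 427 below 0; members called were 13 with only the 2 groups and 5 below 0. In benzene they were 4479, 3768 and 4694 by limma-voom, offsets and above 0, and 349 with 2 members below 0. Without Sham/Air replicate 1, 23 genes became 49 for the interaction. Benzene against air in sham called 28 by DESeq2, 1 without the filter or with only the 2 groups, 13 with offsets, 7 with the GC trend as a term, 10 above 0, 0 below 0 and 1 below 0 with replicate 1 left out. In TAC it called 171 by DESeq2, 554 (1 member) by limma-voom, 276 with only the 2 groups, 46 with the replicate block, 259 with offsets, 839 (8 members) above 0, 1 below 0 and 15 with replicate 1 left out. The interaction called 57 by DESeq2, 91 by limma-voom, 14 with the replicate block, 70 with offsets, 253 (1 member) above 0, 0 below 0 and 8 with replicate 1 left out, where the members' median was 0.0938.

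Leaving out each library in turn gave 1907 to 3169 genes and 19 to 26 members in air, 1929 to 3667 and 20 to 26 in benzene, 1 to 5 genes for benzene against air in sham, 52 to 234 in TAC and 15 to 49 for the interaction, with 0 members in these 3. The members' median ran from -0.49 to -0.44 in air and from -0.47 to -0.42 in benzene. No pairing of libraries by replicate number was seen. Over 36 same-numbered pairs the correlation of deviations ran from -0.529 to 0.466 with a median of -0.0488, against 0.0193 for other pairs. Just 4 of 24 libraries were closest to their own number. The GC trend did follow the numbers in 3 groups: replicates 1 to 3 were below 0 and 4 to 6 above in both sham groups, and the reverse held in TAC/Air. The median pools pairs of like and of opposite trend. With the replicate block 19 members were called in air and 20 in benzene. The share of all tested genes called in that fit is not given here, so these counts show only how the members' calls moved.

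Libraries of 4170660 to 14632231 counts and the GC trends within groups limit members with a large spread, such as Cpt1b.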
